A study of Homo sapiens with 3 samples.

Results

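The clustered histone genes were taken as the protein-coding genes of GENCODE 44 whose symbols begin with H1-, H2AC, H2BC, H3C or H4C. There were 74 such genes among 19689 protein-coding genes, of which 10 encode the linker histone H1, 17 histone H2A, 19 H2B, 13 H3 and 15 H4. Of them, 55 lie on chromosome 6, 13 on chromosome 1 and 6 elsewhere. These last 6 are not clustered, although their symbols put them in the list, and include H1-10 and H1-8 on chromosome 3, H4C16 and H1-7 on chromosome 12 and H2BC12L on chromosome 21. The other 68 fall into 6 blocks, in which neighbouring members lie less than 200 kb apart. All 3 libraries came from HuCCT1, an established cholangiocarcinoma (bile duct cancer) cell line with no treatment or genotype in the labels, and chromatin was immunoprecipitated with an antibody against SBNO1, against TAF4 or with control IgG. Each antibody had 1 library, made by pooling immunoprecipitates of several biological replicates, so there was no replicate error and no test was possible.

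Histone genes of the replication-dependent kind supply the histones of new chromatin and are transcribed mainly during DNA synthesis. They are short, have no introns, lie in clusters and often share 1 promoter region between an H2A and an H2B gene that run in opposite directions. Their mRNAs end in a stem-loop instead of a poly(A) tail, and the coactivator NPAT gathers with their genes in nuclear bodies. TAF4 is a subunit of TFIID, the general transcription factor that binds core promoters. SBNO1 (Strawberry Notch 1) is a nuclear protein with a helicase-like domain, and the study compared where it and TAF4 sit on chromatin.

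The SBNO1 list held 16147 peaks, the TAF4 list 12763 and the IgG list 1598. The peaks carry a score, a whole number of unstated scaling that is capped at 1000, and no read counts, so the sequencing depth is unknown. A gene was counted with a peak when the nearest edge of the peak lay within 1 kb of the start site (TSS) of any of its protein-coding transcripts, and a peak was counted for every gene in its reach. The intervals beside shares are exact 95% Clopper-Pearson intervals, which cover counting error only and treat genes as independent although neighbours share peaks.

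The promoters of 6 members show the sequence at such start sites. They were chosen as H4C14 and H2AC20, which carried the widest SBNO1 peaks of the H4 and the H2A genes, H3C14 and H4C16, which also carried an IgG peak, and H1-4 and H1-10, the H1 genes with a TAF4 peak on the TSS. Each runs 5′ to 3′ along the gene, holds the 250 bases before its start and the first 50 bases from it, and is taken from RefSeq on GRCh38.p14. Capitals mark exact matches, on either strand, of 5 short motifs known from histone promoters: the TATA box TATAAA, the CCAAT box CCAAT, the octamer ATTTGCAT, the H1 box AAACACA and GTCCG, the core of a site in H4 promoters.
H4C14 (chr1:149832407-149832706, plus strand): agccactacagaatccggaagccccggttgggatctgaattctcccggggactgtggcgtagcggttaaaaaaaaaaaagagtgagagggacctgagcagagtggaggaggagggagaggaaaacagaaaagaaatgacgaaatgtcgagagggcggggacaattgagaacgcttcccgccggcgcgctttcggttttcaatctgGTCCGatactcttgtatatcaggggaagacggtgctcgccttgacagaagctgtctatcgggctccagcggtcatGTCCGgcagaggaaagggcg
H4C16 (chr12:14771082-14771381, minus strand): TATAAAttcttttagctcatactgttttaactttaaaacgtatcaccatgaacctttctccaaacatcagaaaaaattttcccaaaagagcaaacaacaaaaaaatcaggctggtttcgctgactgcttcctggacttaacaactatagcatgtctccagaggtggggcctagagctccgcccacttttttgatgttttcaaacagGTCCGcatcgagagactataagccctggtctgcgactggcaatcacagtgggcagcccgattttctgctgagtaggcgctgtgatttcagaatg
H2AC20 (chr1:149886668-149886967, plus strand): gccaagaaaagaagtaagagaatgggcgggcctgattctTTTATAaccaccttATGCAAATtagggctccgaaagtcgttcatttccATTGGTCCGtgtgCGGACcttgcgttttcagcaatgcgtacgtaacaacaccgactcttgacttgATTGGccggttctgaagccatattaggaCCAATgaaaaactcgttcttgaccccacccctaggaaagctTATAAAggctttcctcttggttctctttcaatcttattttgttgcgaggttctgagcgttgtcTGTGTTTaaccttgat
H3C14 (chr1:149841159-149841458, minus strand): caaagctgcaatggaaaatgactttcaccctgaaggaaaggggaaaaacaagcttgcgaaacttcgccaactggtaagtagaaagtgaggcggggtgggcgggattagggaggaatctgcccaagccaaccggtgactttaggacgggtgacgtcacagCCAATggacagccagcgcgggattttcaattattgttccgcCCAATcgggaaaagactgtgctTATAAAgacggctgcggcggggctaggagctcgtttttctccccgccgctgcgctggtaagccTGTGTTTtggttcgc
H1-4 (chr6:26156079-26156378, plus strand): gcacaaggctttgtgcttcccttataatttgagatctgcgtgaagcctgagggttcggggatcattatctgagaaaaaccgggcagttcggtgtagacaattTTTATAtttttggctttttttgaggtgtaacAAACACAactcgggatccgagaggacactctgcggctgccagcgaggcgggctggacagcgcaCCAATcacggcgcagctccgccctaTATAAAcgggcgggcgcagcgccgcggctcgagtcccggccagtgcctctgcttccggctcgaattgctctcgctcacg
H1-10 (chr3:129316237-129316536, minus strand): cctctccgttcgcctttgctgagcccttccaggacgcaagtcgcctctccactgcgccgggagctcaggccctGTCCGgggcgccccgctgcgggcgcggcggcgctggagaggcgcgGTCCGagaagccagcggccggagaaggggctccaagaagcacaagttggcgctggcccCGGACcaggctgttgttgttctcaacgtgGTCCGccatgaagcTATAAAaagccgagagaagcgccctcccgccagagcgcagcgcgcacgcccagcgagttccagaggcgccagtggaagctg

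In both H4 promoters GTCCG stands at nearly the same place, 45 bases before the start in H4C14 and 44 bases before it in H4C16. The second GTCCG of H4C14, at base 31 counted from the start as 1, overlaps the start codon. H4C16 has a TATAAA only at the far edge of the window and H4C14 has none. TATAAA begins 29 bases before the start in H2AC20 and H1-4, 28 in H3C14 and 31 in H1-10. H2AC20 holds the octamer on the reverse strand, 197 bases before the start, and 3 CCAAT matches, the first of which shares its last base with a GTCCG. The H1 box of H1-4 lies 117 bases before the start, and H1-10 has none but carries 4 GTCCG matches. A match gives the letters only and does not show that a factor was bound.

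TAF4 peaks were found at more histone genes than SBNO1 peaks, and every histone gene with an SBNO1 peak in reach also had a TAF4 peak in reach. SBNO1 peaks lay within 1 kb of 40 of the 74 members (54.1%, interval 42.1% to 65.7%), whereas the share was 25.7% over the whole annotation. TAF4 peaks were in reach of 52 members (70.3%, interval 58.5% to 80.3%), against 31.9% of all genes. The background of the procedure, measured with IgG, gave 4 members (5.41%, interval 1.49% to 13.3%) beside 1.41% of all genes. For SBNO1 and TAF4 the lower end of the interval thus exceeded the share of all genes. For IgG it did so only just (1.49% beside 1.41%), and the 4 members rested on 3 distinct IgG peaks, so they were not independent. With SBNO1 and TAF4 peaks that overlap an IgG peak left out, 39 members (52.7%) still had SBNO1 and 51 (68.9%) TAF4, beside 24.6% and 30.8% of all genes.

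Both proteins had a peak at the same 40 members, 54.1% of the list, beside 22.6% of all genes. SBNO1 without TAF4 was seen at 0 of 74 members, with an upper interval bound of 4.86%, beside 3.08% of all genes, so this class was too rare to tell the members from the rest. Where each peak was assigned to its nearest TSS only, 32 members had SBNO1 and 30 had both proteins. TAF4 without SBNO1 was seen at 12 members (16.2%, interval 8.67% to 26.6%), beside 9.29% of all genes, which lies inside the interval. The remaining 22 members (29.7%) had no peak of any library, a class that held 65.0% of all genes. Counting promoters in place of genes, with members whose TSS lie within 1 kb of each other taken as 1, left 61 promoters, of which 31 (50.8%) had SBNO1, 41 (67.2%) TAF4 and 3 (4.92%) IgG. The shares of all genes were not computed for promoters or for assignment to the nearest TSS, so these counts have no background beside them.

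The peaks lay on the start sites. An SBNO1 peak covered the TSS itself at 36 members (48.6%), compared with 21.7% of all genes, and a TAF4 peak did so at 49 (66.2%), compared with 28.8%. The SBNO1 peaks that came within 1 kb without reaching the TSS belonged to H2AC21 at 57 bp, H3C7 at 690 bp, H1-2 at 948 bp and H3C1 at 985 bp. The last 2 of these are just inside the limit, while H3C13, with its nearest SBNO1 peak at 1045 bp and its nearest TAF4 peak at 1013 bp, is just outside it. For TAF4 the members inside the limit without coverage were H2BC14 at 1 bp, H3C7 at 869 bp and H1-2 at 923 bp. In the plot of peak extents along each gene, the bars gather on the start line for H2A, H2B and H4 genes.

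**Figure D1:**
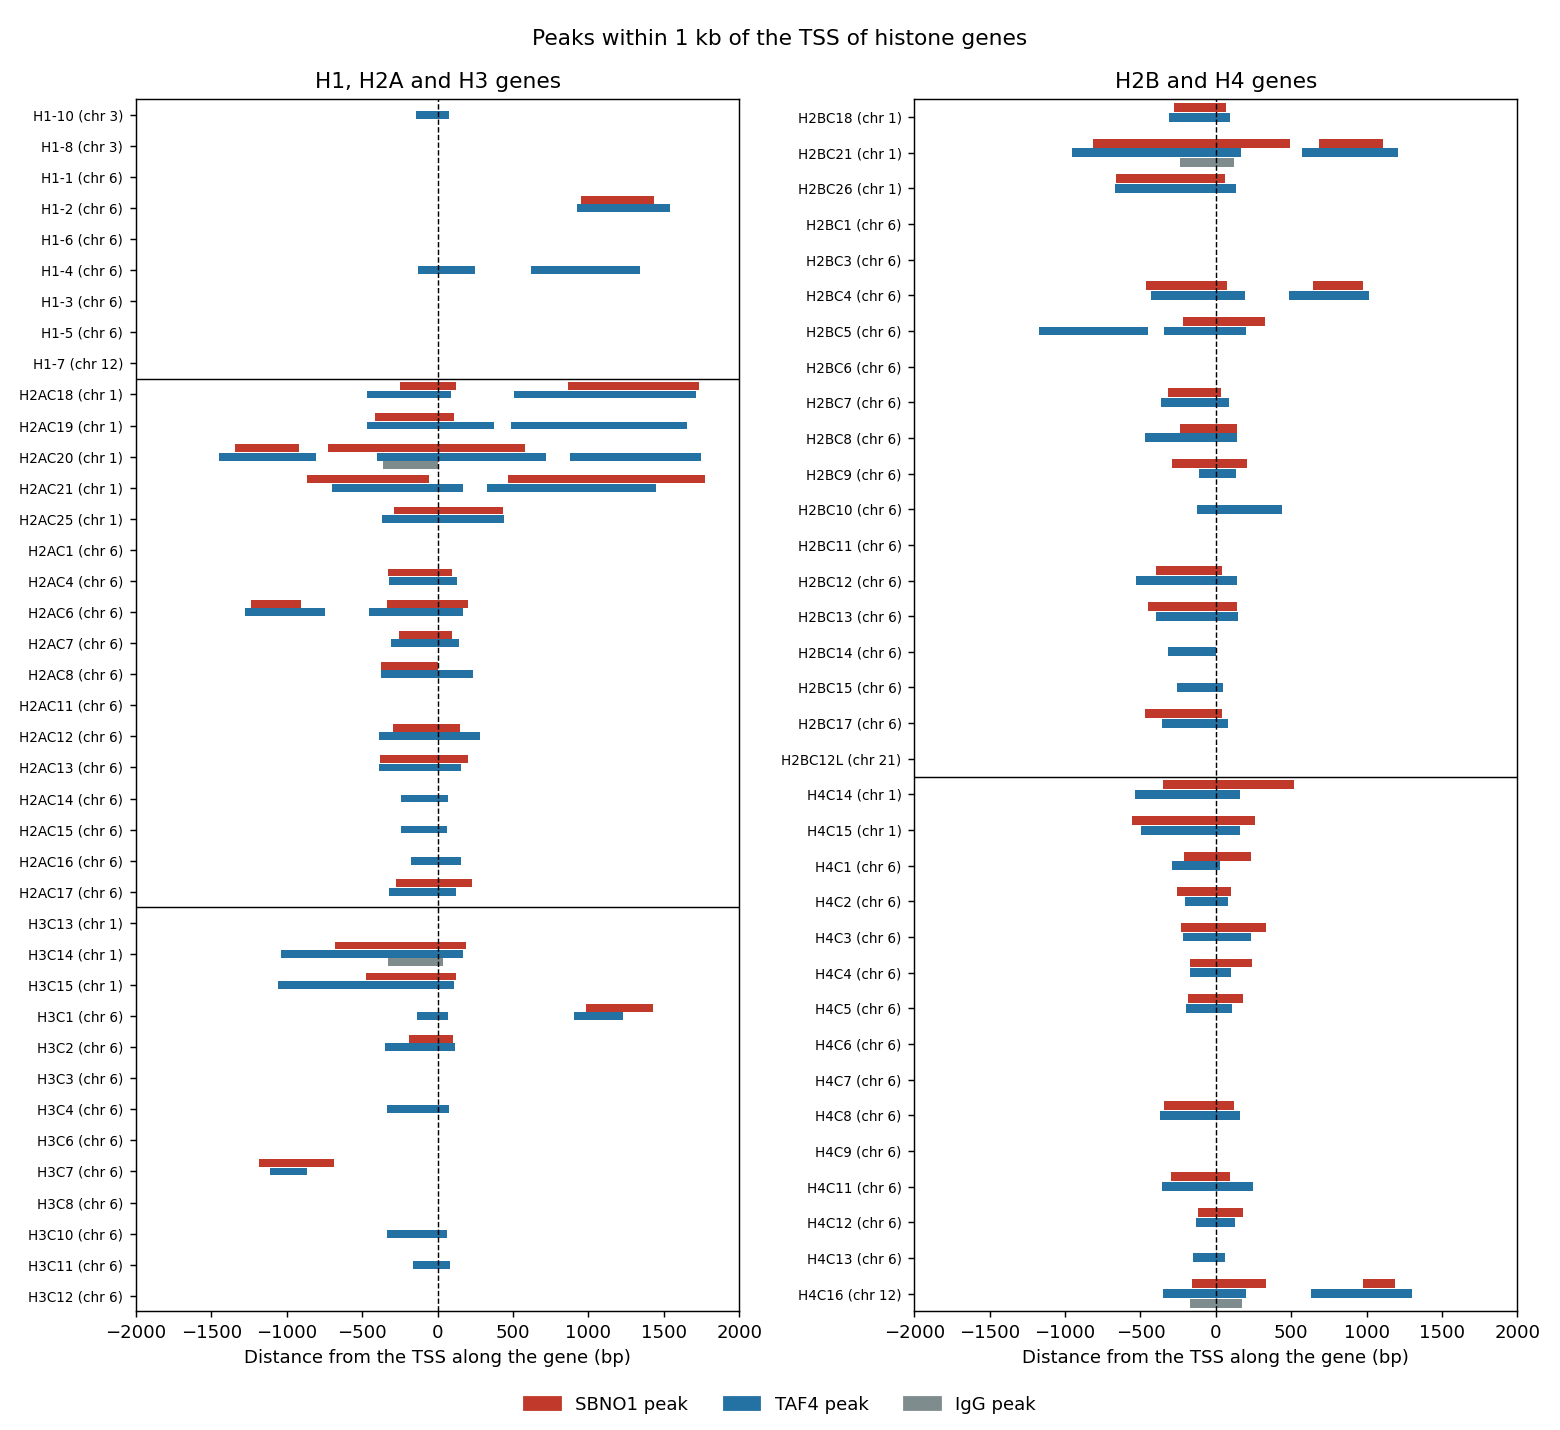
Extent of each peak in reach of the histone genes, in bp along the direction of the gene (negative is upstream, dashed line is the TSS). Distances run from the protein-coding TSS of the gene that is nearest to the peak. Red bars are SBNO1, blue bars TAF4 and grey bars IgG peaks, 1 library each, and rows without a bar are genes with no peak. Red bars appear at 40 genes and blue bars at 52, and every gene with a red bar also has a blue one.

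Histone H4 forms the core of the nucleosome together with H3, and its genes encode nearly identical proteins. Of the 15 H4 genes, 11 (73.3%, interval 44.9% to 92.2%) had an SBNO1 peak and 12 (80%, interval 51.9% to 95.7%) a TAF4 peak, beside 25.7% and 31.9% of all genes. H4C13 had TAF4 alone, from a narrow peak of 214 bp with score 979 that spanned 153 bp before to 60 bp after the TSS. H4C6, H4C7 and H4C9 had no peak. H4C7 encodes a shortened H4, with a coding sequence of 294 bp in place of 309 bp in the other H4 genes.

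The SBNO1 peaks of H4 genes had the highest scores among the histone types. Their median score was 1000, with 7 of 11 at the cap, and the scores below it were 673 at H4C12, 731 at H4C11, 768 at H4C1 and 960 at H4C3. By comparison, the median SBNO1 score was 737 for H2A, 704 for H2B and 807 for H3 genes, and 3, 1 and 1 of their genes were at the cap. By median, the H4 peaks also reached farther into the gene. Their median edges lay at -228 bp and 232 bp from the TSS, negative being upstream, with the centre at 9 bp, whereas SBNO1 peaks of H2B genes had their centre at a median of -153 bp. The SBNO1 peak covered a median of 65.7% of the H4 coding sequence and all of it at H4C14 and H4C3, compared with a median of 25.9% at H2A, 18.5% at H2B and 15.7% at H3 genes. The layout differs between types. At 8 pairs of an H2A and an H2B gene, 1 SBNO1 peak covered both TSS. The coding sequence is 309 bp at most H4, 390 bp at most H2A and 378 bp at most H2B genes. These differences were not adjusted for. TAF4 peaks at H4 genes lay more upstream, with median edges of -255.5 bp and 141 bp, and covered a median of 35.3% of the coding sequence.

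H4C14, in the chromosome 1 cluster, had the widest peaks of both proteins among the H4 genes. Its SBNO1 peak (chr1:149832307-149833174) was 868 bp wide with a score of 1000. Its TAF4 peak (chr1:149832123-149832814) was 692 bp wide, also with a score of 1000. Both cover the GTCCG of the promoter printed above. No 50-base word around this TSS is unique in the genome, so its reads cannot be told apart from those of its copy H4C15, whose peaks were 814 bp and 657 bp wide with scores of 1000.

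H4C16, the lone H4 gene on chromosome 12, had peaks of all 3 libraries on its TSS. SBNO1 covered chr12:14770797-14771286 (490 bp, score 1000), TAF4 chr12:14770934-14771481 (548 bp, score 1000) and IgG chr12:14770956-14771303 (348 bp, score 823). Within the gene, a further SBNO1 peak at chr12:14769943-14770152 (210 bp, score 1000) began 979 bp from the TSS, and a further TAF4 peak at chr12:14769828-14770502 (675 bp, score 614) began 629 bp from it. The IgG peak centred 2 bp from the TSS, so the TSS signal at H4C16 was not separated from background in these lists. The further SBNO1 and TAF4 peaks did not overlap an IgG peak.

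**Figure D2:**
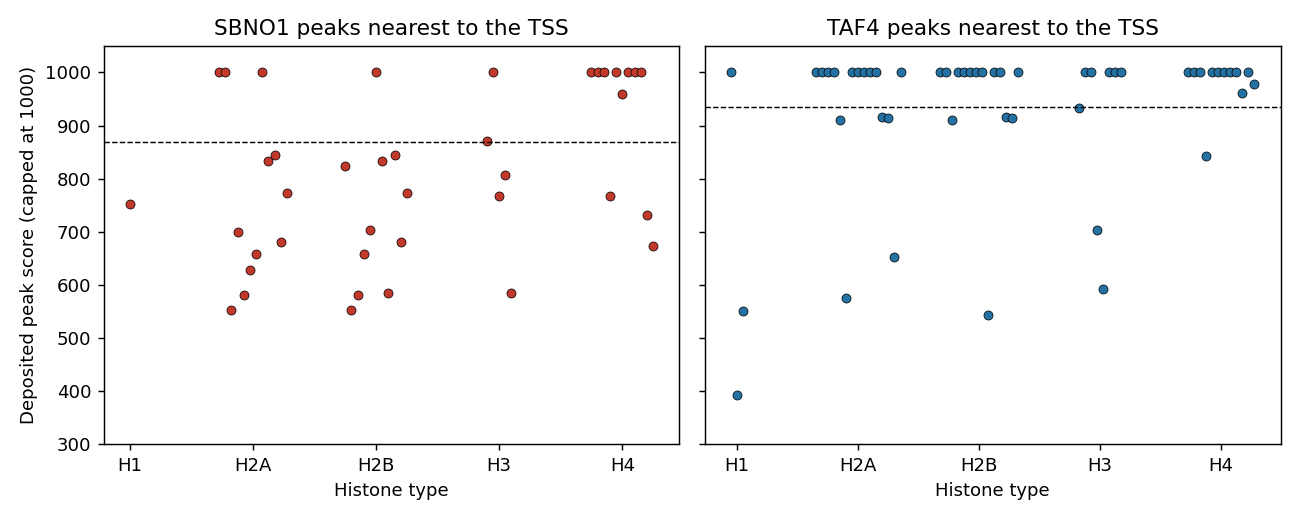
Deposited score, capped at 1000, of the SBNO1 (left) and TAF4 (right) peak nearest to the TSS of each histone gene, by histone type. Each point is 1 gene, genes of a pair can share a peak, points are spread sideways only for visibility, and the dashed line is the median score of the whole list, 869 for SBNO1 and 935 for TAF4. Of the H4 genes 7 of 11 reach the cap for SBNO1, while most H2A and H2B genes lie below the SBNO1 line and at the cap for TAF4.

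H2A and H2B form the outer part of the nucleosome core, and most of their genes are arranged as divergent pairs. Of the 17 H2A genes, 12 (70.6%, interval 44% to 89.7%) had SBNO1 and 15 (88.2%, interval 63.6% to 98.5%) TAF4. Of the 19 H2B genes, 11 (57.9%, interval 33.5% to 79.7%) had SBNO1 and 14 (73.7%, interval 48.8% to 90.9%) TAF4. For both types the intervals lie above the 25.7% and 31.9% of all genes. TAF4 without SBNO1 was seen at H2AC14, H2AC15, H2AC16, H2BC10, H2BC14 and H2BC15. Without any peak were H2AC1, H2AC11, H2BC1, H2BC3, H2BC6, H2BC11 and H2BC12L. H2AC1 and H2BC1 form the pair that is used in testis. H2BC12L, on chromosome 21, has no unique 50-base word around its TSS, with up to 10 copies, so its lack of a peak could not be read as lack of binding.

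There were 13 divergent pairs of members with TSS within 1 kb, 12 of an H2A and an H2B gene and 1 of H3C7 and H2BC9. Their TSS lay 194 bp to 979 bp apart, with a median of 240 bp. An SBNO1 peak was in reach of both genes at 9 pairs (69.2%, interval 38.6% to 90.9%), a TAF4 peak at 11 (84.6%, interval 54.6% to 98.1%) and an IgG peak at 1 (7.69%). Among 1453 other protein-coding divergent pairs the shares were 49.1%, 60.3% and 2.62%. For all 3 libraries the share of the other pairs lay inside the interval of the histone pairs, so a difference was not detectable with 13 pairs.

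At 8 of the 9 pairs with SBNO1, 1 SBNO1 peak covered both TSS, and 1 TAF4 peak did the same. The exception was H3C7 and H2BC9, 979 bp apart, where the SBNO1 peak (chr6:26251325-26251822, score 584) and the TAF4 peak (chr6:26251504-26251746, score 1000) lay on H2BC9 only. The pairs H2AC14/H2BC14 and H2AC15/H2BC15 had TAF4 alone. The peak of the former, chr6:27814705-27815021 with score 916, covered the TSS of H2AC14 and ended 1 bp before that of H2BC14. The peak of the latter, chr6:27838312-27838619 with score 915, covered both. H2BC11/H2AC11 and H2AC1/H2BC1 had no peak at all.

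The widest SBNO1 peak of any member lay at the pair H2BC21/H2AC20 on chromosome 1, whose TSS are 236 bp apart. It spanned chr1:149886193-149887497, a width of 1305 bp, and covered the whole coding sequence of both genes, but its score of 552 was the lowest among members. The TAF4 peak at chr1:149886517-149887635 was 1119 bp wide with a score of 1000. An IgG peak at chr1:149886559-149886922, 364 bp wide with a score of 904, covered both TSS as well. This region holds the H2AC20 promoter printed above. A further SBNO1 peak at chr1:149885573-149885997 (425 bp, score 787) and a further TAF4 peak at chr1:149885471-149886110 (640 bp, score 473) lay downstream of the H2BC21 TSS, and these did not overlap an IgG peak. The next gene, H2AC21, had a TAF4 peak over the TSS (chr1:149887799-149888668, score 1000) and an SBNO1 peak (chr1:149888022-149888829, score 700) that ended 57 bp upstream of it. Both peaks were also in reach of BOLA1, a gene outside the list, and the TAF4 peak was in reach of H2AC20 as well.

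The widest TAF4 peak in reach of an H2A gene was the one at H2AC18, chr1:149841038-149842243, 1206 bp wide with a score of 934. It began 507 bp downstream of the H2AC18 TSS, near the end of that gene, and extended beyond it over the TSS of the neighbour H3C14. The peaks on the TSS of H2AC18 itself had scores of 1000, with widths of 376 bp for SBNO1 and 557 bp for TAF4.

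Histone H3 carries many of the modifications that mark chromatin states. Of the 13 H3 genes, 5 (38.5%, interval 13.9% to 68.4%) had SBNO1 and 8 (61.5%, interval 31.6% to 86.1%) TAF4. These intervals include the 25.7% and the 31.9% of all genes, the latter only just. SBNO1 covered the TSS at H3C2, H3C14 and H3C15 only. Its score there was 807, 871 and 1000. At H3C1 the SBNO1 peak (chr6:26021436-26021881, score 768) was the one on the TSS of the next gene, H4C1, while a TAF4 peak of 210 bp with a score of 1000 lay on the TSS of H3C1 itself. H3C7 was reached only by the peaks on H2BC9. Both SBNO1 peaks counted for H3 genes without covering the TSS were thus those of a neighbour. H3C4, H3C10 and H3C11 had TAF4 alone, with scores of 592, 1000 and 1000. H3C3, H3C6, H3C8, H3C12 and H3C13 had no peak.

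H3C14 had the widest peaks among the H3 genes. SBNO1 covered chr1:149841018-149841888 (871 bp, score 871), the TAF4 peak was the one of 1206 bp shared with H2AC18, and an IgG peak lay at chr1:149841169-149841535 (367 bp, score 632). All 3 covered the TSS. Its near-identical copy H3C15 had SBNO1 at chr1:149852136-149852732 (597 bp, score 1000) and TAF4 at chr1:149851551-149852716 (1166 bp, score 1000) and no IgG peak. Since neither gene has a unique word around the TSS, the difference in IgG between the copies cannot be assigned to 1 of them.

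Linker histone H1 binds the DNA between nucleosomes. It was the type with the fewest peaks: 1 of 10 genes (10%, interval 0.253% to 44.5%) had SBNO1 and 3 (30%, interval 6.67% to 65.2%) TAF4, and the shares of all genes lie inside both intervals. Of the 50-base words around the TSS of H1 genes, 99.5% to 100% occur at 1 place in the genome. H1-2, a somatic linker histone, was the only one with SBNO1. This peak (chr6:26055036-26055522, 487 bp, score 753) and its TAF4 peak (chr6:26054929-26055547, 619 bp, score 393) did not lie on the promoter. They began 948 bp and 923 bp downstream of the TSS, beyond the annotated end of the gene.

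H1-4, another somatic H1 gene, had a TAF4 peak on its TSS (chr6:26156197-26156575, 379 bp, score 551) and a wider one downstream (chr6:26156949-26157673, 725 bp, score 408). Its nearest SBNO1 peak was 1578 bp away, on the neighbour H2BC5. H1-10, a linker histone on chromosome 3 whose gene does not depend on replication, had a TAF4 peak of 221 bp with a score of 1000 (chr3:129316209-129316429) over the TATAAA and the start printed above. No peak was found at H1-1, H1-3 and H1-5 of the somatic set or at the germline genes H1-6, H1-7 and H1-8. Together with H2AC1 and H2BC1, the germline genes made up 5 members with 0 peaks of any library (interval 47.8% to 100%). The 65.0% of all genes without a peak lies inside this interval. Without these 5 members the shares were 58.0% for SBNO1 and 75.4% for TAF4 of 69 members.

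**Figure D3:**
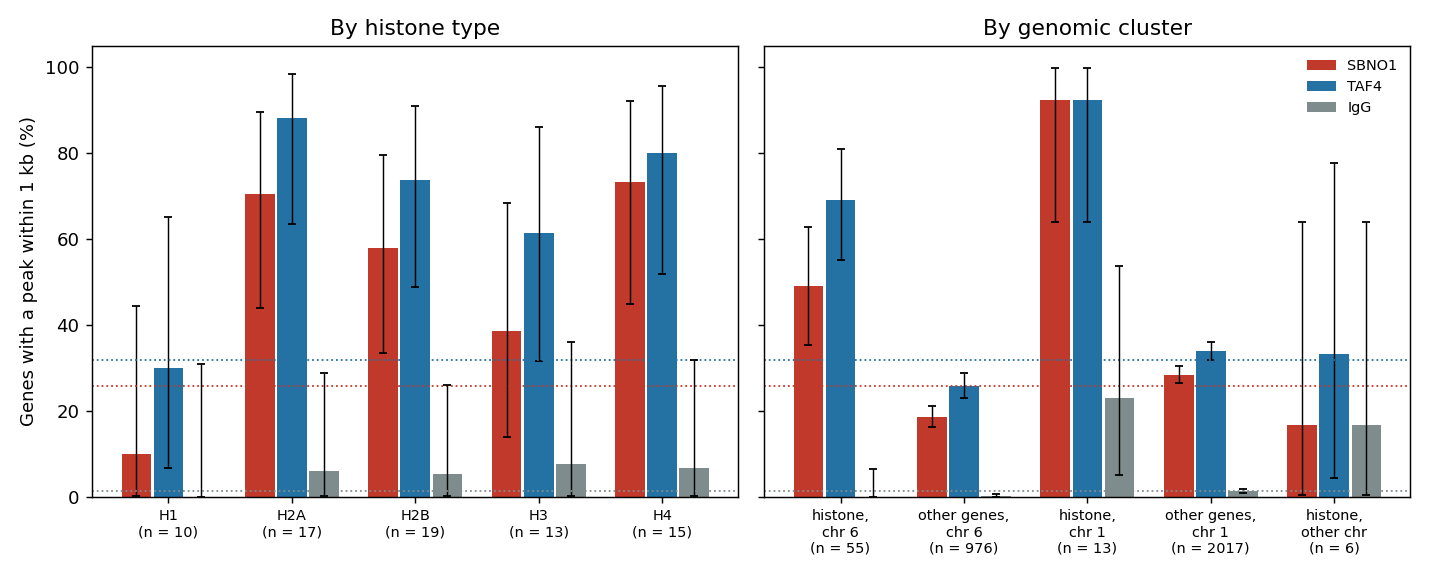
Percentage of genes with a peak within 1 kb of a protein-coding TSS, by histone type (left) and by chromosome beside the other protein-coding genes of that chromosome (right). Bars start at 0, error bars are exact 95% Clopper-Pearson intervals (counting error only) and dotted lines are the shares of all protein-coding genes, 25.7% for SBNO1, 31.9% for TAF4 and 1.41% for IgG. H1 has the lowest bars of the 5 types, and the chromosome 1 genes have the highest SBNO1 and IgG bars of the clusters.

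Between chromosomes 6 and 1 the intervals of the members did not overlap for SBNO1 but did for TAF4 and IgG. A difference between the clusters was not tested. On chromosome 6, 27 of 55 members (49.1%, interval 35.4% to 62.9%) had SBNO1, 38 (69.1%, interval 55.2% to 80.9%) TAF4 and 0 IgG. The other 976 genes of chromosome 6 had peaks in 18.6%, 25.8% and 0.205%. On chromosome 1, 12 of 13 members (92.3%, interval 64.0% to 99.8%) had SBNO1, the same 12 had TAF4, and 3 (23.1%, interval 5.04% to 53.8%) had IgG. For the other 2017 genes of chromosome 1 the shares were 28.4%, 34.0% and 1.24%. The member of chromosome 1 without a peak was H3C13. Among the 6 members elsewhere, only H4C16 had SBNO1, and H4C16 and H1-10 had TAF4.

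The counts varied between the blocks of chromosome 6, and a difference between blocks was not tested. Over all genes the shares were 25.7% for SBNO1, 31.9% for TAF4 and 9.29% for TAF4 without SBNO1. No intervals were computed for single blocks. The largest, H1-1 to H4C8 (chr6:26017032-26285638, 268.6 kb), had SBNO1 at 19 and TAF4 at 22 of 32 members. The block from H2BC13 to H2BC17 (chr6:27807479-27893891, 86.4 kb) had SBNO1 at 6 and TAF4 at 14 of 16 members, and so held 8 of the 12 members with TAF4 alone. In the block H2BC11 to H2AC12 (chr6:27125897-27147562, 21.7 kb) only the pair H2BC12/H2AC12 had peaks, of both proteins. The pair H2AC1/H2BC1 (chr6:25723397-25727345) had none. On chromosome 1, the block H2BC18 to H2AC21 (chr1:149782689-149887965, 105.3 kb) had both proteins at 10 of 11 members, and the pair H2AC25/H2BC26 (chr1:228434777-228463104) shared 1 SBNO1 peak (score 581) and 1 TAF4 peak (score 911).

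Most peaks within the blocks lay near histone genes. In the largest block all 15 SBNO1 peaks were within 1 kb of a member TSS, as were 20 of 22 TAF4 peaks, and the other 2 TAF4 peaks were not within 1 kb of any protein-coding TSS. In the block H2BC13 to H2BC17 this held for all 4 SBNO1 and 10 TAF4 peaks, and in the block H2BC18 to H2AC21 for all 10 SBNO1, 10 TAF4 and 2 IgG peaks. Of 20 other protein-coding genes inside the 6 blocks or within 100 kb of them, 4 (20%, interval 5.73% to 43.7%) had SBNO1, 4 had TAF4 and 1 (5.0%) had IgG. Of the 4 of these genes that lie between the outermost members of a block, 2 (50%, interval 6.76% to 93.2%) had both proteins and 1 (25%) had IgG. The 22.6% of all genes with both proteins lies inside that interval. The 2 genes were BOLA1 and an unnamed gene (ENSG00000282988), the only non-members in reach of peaks counted for members. Their shares thus rest on peaks that were also counted for histone genes.

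Because histone genes have close copies, the sequence around each TSS was checked for 50-base words, the length of the reads, that occur at 1 place in the genome. Over 500 bp to either side, the median share of such unique words was 99.3% for all members, and 52 of 74 had at least 90%. On chromosome 6 the median was 99.9%, with 46 of 55 genes at 90% or more. On chromosome 1 the median was 27.1%, and only H2AC21 reached that level. H2AC18, H2AC19, H3C14, H3C15, H4C14 and H4C15, which lie in a duplicated stretch, had no unique word. The plot of unique words by peak class shows these genes at 0.

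Among members with SBNO1, 23 of 40 had mostly unique sequence, compared with 9 of 12 with TAF4 alone and 20 of 22 with no peak. Restricting the list to the 52 members of mostly unique sequence left 23 (44.2%) with SBNO1, 32 (61.5%) with TAF4 and 1 (1.92%) with IgG. Leaving out only the 7 members with no unique word gave 34 of 67 (50.7%) and 46 of 67 (68.7%). Of the 12 members with SBNO1 on chromosome 1, 11 had under 90% unique words, and the part of repeated sequence in their peaks was not tested. By type, the mostly unique members with SBNO1 were 7 of 11 for H4, 6 of 10 for H2A, 6 of 11 for H2B, 3 of 10 for H3 and 1 of 10 for H1.

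**Figure D4:**
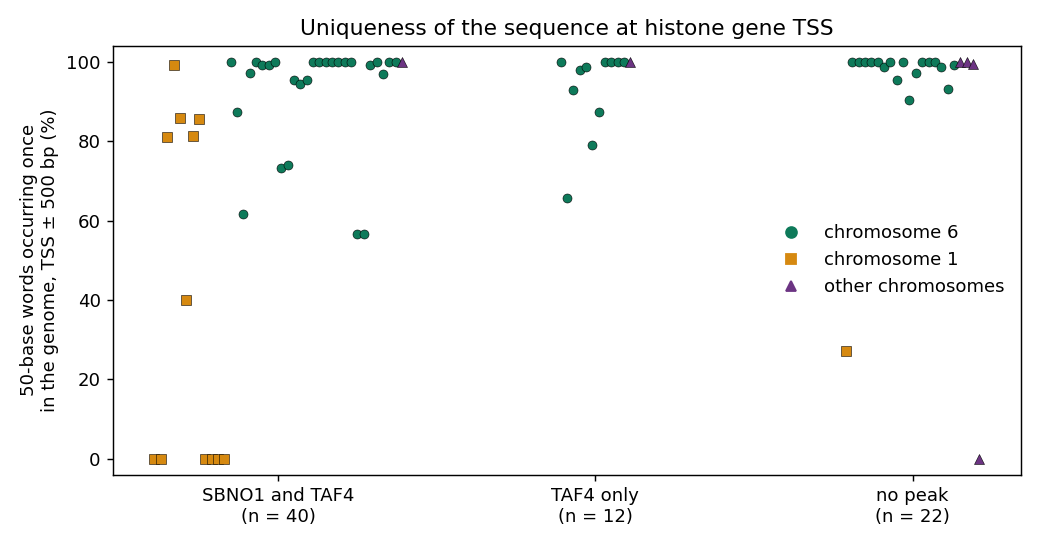
Percentage of 50-base words within 500 bp of the TSS that occur at 1 place in the genome, for each histone gene, by peak class. Each symbol is 1 gene (circles chromosome 6, squares chromosome 1, triangles other chromosomes), and sideways positions carry no meaning. The squares at 0 are 6 genes of the duplicated stretch on chromosome 1, all with both proteins, and the triangle at 0 is H2BC12L.

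The peaks of both proteins coincided at histone genes. Every one of the 33 SBNO1 peaks in reach of a member overlapped a TAF4 peak (interval 89.4% to 100%), as did those of all 40 genes, where the other genes with SBNO1 gave 86.7%. In the other direction, an SBNO1 peak overlapped 33 of the 45 TAF4 peaks (73.3%, interval 58.1% to 85.4%). Counted by gene, 40 of 52 members with TAF4 (76.9%, interval 63.2% to 87.5%) did so, compared with 69.9% of other genes. Neither peak was regularly the wider one. Of the 30 overlapping pairs of nearest peaks, SBNO1 was wider in 12 and TAF4 in 18, with a median difference of -58.5 bp (SBNO1 minus TAF4) and a median overlap of 417.5 bp. The peaks nearest to member TSS had a median width of 488.5 bp for SBNO1 (range 292 to 1305) and 452 bp for TAF4 (range 210 to 1206), compared with 422 bp and 418 bp at other genes.

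The scores at members were set beside those at other genes of the same list. Of the SBNO1 peaks nearest to member TSS, 11 of 30 (36.7%) were at the cap and their median score was 828.5, close to the 32.4% and 851 at other genes. Of the TAF4 peaks, 27 of 41 (65.9%) were at the cap, compared with 51.3% at other genes. With peaks of score 1000 alone, 14 members (18.9%) had SBNO1 and 35 (47.3%) had TAF4, where all genes had 9.14% and 17.3%. Of those 14, 7 were H4, 4 H2A, 2 H2B and 1 an H3 gene. The scaling of the score was not stated, so scores were compared only within a list.

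The promoter motifs differed between histone types. In the window from 250 bp before to 50 bp after the TSS, TATAAA was present in 49 of 74 members (66.2%) and in 23.3% of all genes. CCAAT was found in 82.4% of members and in 55.3% of all genes, in all 17 H2A and all 13 H3 genes but in 5 of 15 H4 genes. The octamer ATTTGCAT was found in 15 of 19 H2B genes (78.9%) and 12 of 17 H2A genes (70.6%), beside 3.55% of all genes, and in none of the H1, H3 and H4 genes. In the 100 bp before the TSS alone, its shares were 42.1% for H2B and 5.88% for H2A genes, beside 1.48% of all genes. Windows of a divergent pair overlap, so their counts are not independent. AAACACA was present in 8 of 10 H1 genes (80.0%) beside 12.9% of all genes, and in the 100 bp before the TSS in 1 of 10 beside 5.05%. GTCCG was present in 14 of 15 H4 genes (93.3%) beside 51.9%, the H4 gene without it being H4C7. A gene with several TSS has several windows, and with 1 TSS per gene the shares of all genes were 9.66% for TATAAA, 36.1% for CCAAT, 1.62% for ATTTGCAT, 4.19% for AAACACA and 37.4% for GTCCG.

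The positions seen in the printed promoters recurred. TATAAA began between -35 and -20 bp from the TSS in 40 members (54.1%) and in 3.96% of all genes. GTCCG began between -60 and -30 bp from it in 13 of 15 H4 genes (86.7%) and in 2.71% of all genes. These ranges were chosen after the printed promoters had been seen. Between peak classes, TATAAA was present in 28 of 40 members with SBNO1 (70%, interval 53.5% to 83.4%), 8 of 12 with TAF4 alone (66.7%, interval 34.9% to 90.1%) and 13 of 22 with no peak (59.1%, interval 36.4% to 79.3%), and these intervals overlap. GTCCG was present in 37.5%, 16.7% and 27.3% of these classes and AAACACA in 10%, 8.33% and 27.3%. H4C6 and H4C9 hold GTCCG and have no peak, as H4C16 and H4C14 hold it and have both. The GC content of the window was lower than that of all genes, with a median of 44.4% in members and 63.8% in all genes, and was 44.4% in members with SBNO1 and 45.5% in members with no peak.

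The genes that serve histone supply were examined in the same way. Of 14 genes for the transcription and processing of histone mRNA, 9 (64.3%, interval 35.1% to 87.2%) had SBNO1, 10 (71.4%, interval 41.9% to 91.6%) TAF4 and 0 IgG, beside 25.7%, 31.9% and 1.41% of all genes. NPAT, the coactivator of histone transcription, had SBNO1 at chr11:108222432-108223159 (score 783) and TAF4 at chr11:108222185-108223365 (score 872). HINFP, which binds H4 promoters, had SBNO1 at chr11:119121090-119121620 (score 863) and TAF4 at chr11:119121113-119121649 (score 1000). CASP8AP2, a component of the same nuclear bodies, had SBNO1 at chr6:89829602-89829895 (score 965) and TAF4 at chr6:89829500-89829970 (score 884). All of these peaks covered a TSS.

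SLBP, which binds the stem-loop of histone mRNA, had TAF4 alone, 219 bp from the TSS (chr4:1712563-1712930, score 1000). ZNF473, a zinc finger protein of the processing complex, was the only gene in these lists with SBNO1 and no TAF4 (chr19:50025361-50025821, score 630). LSM10 and LSM11, subunits of the U7 particle that cleaves histone pre-mRNA, had no peak, and neither had CSTF2. POU2F1, which binds the octamer, had 2 peaks of each protein.

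Of 10 histone variants expressed outside replication, 6 had SBNO1 and the same 6 had TAF4 (60%, interval 26.2% to 87.8%): H2AX, H2AZ1, H2AZ2, H2AJ, H3-3A and H3-3B. Of all genes 25.7% had SBNO1 and 31.9% TAF4, and the latter lies inside the interval. Among them H2AX, the variant phosphorylated at DNA breaks, and H2AZ2 also had an IgG peak. At H2AX, SBNO1 covered chr11:119095368-119095836 (score 1000), TAF4 chr11:119095345-119095896 (score 1000) and IgG chr11:119095467-119095756 (score 735). At H2AZ2 the peaks were chr7:44848069-44848566 (score 1000), chr7:44848071-44848554 (score 1000) and chr7:44848080-44848590 (score 677), respectively. MACROH2A1, MACROH2A2, H3-5 and CENPA, the centromeric H3, had none. The 6 germline variants outside the list of members had no peak of any library (interval 54.1% to 100%). The 65.0% of all genes without a peak lies inside this interval. Of 13 histone chaperones, which escort histones to DNA, 5 (38.5%, interval 13.9% to 68.4%) had SBNO1, 10 (76.9%, interval 46.2% to 95%) TAF4 and 0 IgG. For the chaperones the SBNO1 interval includes the 25.7% of all genes, and the TAF4 interval lies above the 31.9% of all genes.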

How the data were processed

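ChIP-seq peak lists for SBNO1, TAF4 and IgG from HuCCT1 cells were used, 1 per antibody. According to the methods of the study, single-end reads of 50 bases were trimmed (ktrim) and aligned to GRCh38 (bowtie2), and normR called the peaks. The submitters' processing notes name Bowtie2 2.5.4, Genrich 0.6.1 and GRCh38.p14 instead, so the program that wrote the lists was not settled. Besides positions, each deposited peak has a score, a whole number of at most 1000 set by the authors. Peak threshold, handling of duplicate or multiply aligned reads, use of IgG as control in the calls and use of alternate sequences in the alignment were not given in the sources used here.

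TSS were those of the protein-coding transcripts in GENCODE 44, and no peak was filtered out for the main counts. Distances run from the nearest edge of a peak. Coordinates are 1-based on GRCh38. Uniqueness of words was counted on both strands of the assembled chromosomes and the mitochondrial genome, and motifs were exact matches on both strands. RefSeq promoter sequences were given for 67 of the 74 members. Python 3.11.15, NumPy 2.4.6, SciPy 1.17.1, numba 0.67.0 and matplotlib 3.10.9 were used, and 6 of 6 functions returned the planted answers on simulated data.

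Members and gene lists were chosen with earlier results of these data known. Peaks were named by a rule: members outside chromosomes 6 and 1, members with an IgG peak, the widest SBNO1 and TAF4 peak of each type, the divergent pair with the widest SBNO1 peak, and from the lists NPAT, HINFP, CASP8AP2, SLBP and genes with IgG or with SBNO1 alone. Other peaks were named after their values were seen. Of the members, 1 is counted in the totals but is not reported by itself here. Alternatives varied the distance, TSS set, assignment, score, removal of IgG peaks, members and motif window.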

Additional observations from a re-analysis of the deposited data

How the results depend on the processing

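Of 62 counts and shares that answer a comparison, recomputed under an alternative, 49 stayed within the set margin of 1.5 times or inside their interval and 13 moved. With peaks at or above the median score of their list, 16 members (21.6%) had SBNO1, 2 (2.70%) IgG and 15 (20.3%) both SBNO1 and TAF4. The shares of all genes were 13.1%, 0.350% and 9.21%. With a score of 1000 these counts were 14 (18.9%), 0 and 14 (18.9%), beside 9.14%, 0.117% and 6.22% of all genes. For TAF4 the counts were 37 and 35, beside 19.6% and 17.3%. Among the 52 members of mostly unique sequence, 23 (44.2%) had SBNO1, 32 (61.5%) TAF4, 1 (1.92%) IgG and 23 (44.2%) both. Of all 74 members the shares were 54.1%, 70.3%, 5.41% and 54.1%. The margin was applied to counts, so these were marked as moved also because the list was shorter. With block limits at the outermost members, 4 other genes remained, of which 50% had SBNO1, 50% TAF4 and 25% IgG. Those with peaks were the genes that shared them with members. Without peaks that overlap an IgG peak, 39 members had SBNO1 and 51 TAF4. A distance of 3 kb gave 46 (62.2%) and 58 (78.4%), beside 28.4% and 33.4% of all genes. Assigning each peak to its nearest TSS only gave 32 with SBNO1, 42 with TAF4 and 30 with both, so that 2 members had SBNO1 alone. With the TSS of all transcripts, 41 and 53 members were counted. The shares of all genes were not computed for the nearest TSS or for all transcripts. Under a reciprocal overlap of 50%, 92.5% of members with SBNO1 had an overlapping TAF4 peak. The alternatives that left out members without unique words or germline members were chosen after seeing the data. Of 70 motif shares 18 moved and 52 did not. In the 100 bp before the TSS, the octamer fell to 42.1% of H2B and 5.88% of H2A genes and AAACACA to 10% of H1 genes. AAACACA in all members then changed sides of the share of all genes, from 14.9% beside 12.9% to 1.35% beside 5.05%, and in H3 genes from 15.4% to 0%.

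No paired analysis was possible because there were no replicates to pair (1 library per antibody). The depth is unknown, so a missing peak does not show that a protein was absent. Intervals cover counting error only.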

Other observations

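Of 19 annotated pseudogenes with symbols of the same kind, 3 had an SBNO1 peak within 1 kb of their 5′ end, 5 a TAF4 peak and 0 an IgG peak. H2BC19P and H2BC20P, in the duplicated stretch of chromosome 1, had SBNO1 and TAF4 peaks that were also in reach of H2AC18 and H2AC19, whose TSS lie 291 bp and 289 bp from the pseudogenes. H4C10P had SBNO1 at 713 bp and TAF4 at 707 bp, within reach of the H2BC13/H2AC13 promoter, and the TAF4 peak of H2BC10 lay 265 bp from H2AC10P, which faces it. H2BC16P, 916 bp from H2AC16, had a TAF4 peak at 742 bp.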
